A study of Mus musculus with 4 samples.

Results

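The Frizzled genes, Fzd1 to Fzd10, encode the cell-surface receptors for Wnt ligands. They were chosen as a gene family by name, and sites were assigned to them when their chromosome, position and strand fell inside the interval that the lists give for the gene. Of the 10 genes, 9 had such an interval, and Fzd6 is not analysed here. The 9 genes held 1001 of the 881997 distinct N6-methyladenosine (m6A) sites listed in the series, and they are 9 of the 11361 coding genes considered.

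The study mapped m6A in mouse retinal organoids on day 4 of differentiation. The method was GLORI, in which glyoxal and nitrite convert unmodified adenosine so that it is read as G, whereas m6A stays unconverted and is read as A. The level of a site is its unconverted reads divided by all its A and G reads. There were 2 wild-type (WT) libraries, made from the Rx:GFP reporter line, and 2 Mettl3 knockout (KO) libraries, made from an Rx:GFP line that lacks Mettl3, the catalytic subunit of the main mRNA m6A methyltransferase. All 4 libraries came from organoids grown with 0.1 µM AGN, and their treatment is recorded as none. The KO line also carries a doxycycline-inducible HA-METTL3 transgene, and the labels record no doxycycline. The labels name 1 line per genotype, give the same batch value to all 4 libraries and do not say whether libraries of a genotype were separate cultures, so p-values measure only the spread between these libraries, which may be technical. Genotype and line therefore cannot be told apart.

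Frizzled receptors bind lipid-modified Wnt proteins through an extracellular cysteine-rich domain and span the membrane several times. Together with an Lrp co-receptor they recruit Dishevelled and stabilise beta-catenin, which acts with Tcf and Lef factors on target genes. With other partners they set planar cell polarity. In the early neural plate, Wnt signalling promotes caudal fates, the eye field forms where it is held low, and Fzd5 is a receptor of the eye field and the retinal progenitors.

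The libraries held 227298, 288516, 230299 and 215850 distinct sites (WT-1, WT-2, KO-1 and KO-2, the order used throughout), with a median coverage of 38 to 41 reads. Coverage over Mettl3 itself was 1.01, 0.801, 1.16 and 1.04 times the median gene, and the KO minus WT log2 difference of 0.29 ± 0.18 (SE) did not pass the test (limma adjusted p = 0.349). This does not check the genotype, because the labels name neither the deleted part of the gene nor the sequence of the transgene. Among the eye field markers, Rax had 20, 35, 0 and 0 listed sites, whereas Six6 had 0 in every library. Among 8 caudal neural and neural crest markers, Pax3 had 0, 0, 36 and 12. Mesoderm and endoderm markers summed to 0 to 4 listed sites per library, and pluripotency markers to 32 and 34 in WT against 14 in each KO library. Of the pluripotency markers, 2 could be tested. Pou5f1 fell (log2 -0.68, limma adjusted p = 0.0467), and Nanog, with a similar difference, did not pass (log2 -0.70, limma adjusted p = 0.0518). The reference genes Actb and Gapdh had log2 coverage differences of -0.64 and -0.24 that did not pass (limma adjusted p = 0.0716 and 0.435).

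Across the 9 Frizzled genes the lists held 271, 359, 255 and 268 sites. The mean was 315 ± 62.2 in WT and 262 ± 9.19 in KO (SD, n = 2 each), a ratio of 0.830. Both KO libraries lay below both WT libraries, but the KO mean was within 1 SD of the WT mean, and a two-sided exact permutation test of 2 against 2 libraries gave p = 0.33, the smallest it can give. High-level sites, defined as a level of at least 0.3 at a coverage of at least 50, numbered 31, 56, 8 and 8 in the Frizzled genes, a ratio of 0.184 (exact permutation p = 0.33), where all genes together gave 0.448. The Frizzled ratio depended on the coverage minimum: at 20 reads the counts were 65, 112, 37 and 46, a ratio of 0.469. The ratio over all genes was not computed at 20 reads. Listed Frizzled sites had a median coverage of 58, 65, 45 and 38 reads, so the minimum of 50 bears more on the KO libraries. With that minimum, raising the level to 0.5 left 16, 26, 1 and 3 sites, a ratio of 0.0952 against 0.274 over all genes. The groups did not overlap in any of these counts. The difference between the Frizzled ratios and those over all genes was not tested. Most single listings did not recur, since 869 of the 1001 sites were listed in 1 library only. The same held over the series. Its lists of 227298, 288516, 230299 and 215850 sites together held 881997 distinct sites, so most were in 1 library only.

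The family divided by gene. The number of listed sites was lower in both KO libraries than in both WT libraries in 5 of the 9 genes, Fzd1, Fzd2, Fzd3, Fzd4 and Fzd5, where 27% of the 9357 genes with at least 10 listings did the same. It was higher in both KO libraries in 3 of the 9, Fzd7, Fzd9 and Fzd10, against 11.4% of those genes. A list can hold a site only where the transcript was read often enough, so these counts move with gene coverage as well as with modification. In these bulk libraries, fewer cells that express a gene and less of its RNA per cell cannot be told apart.

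**Figure D1:**
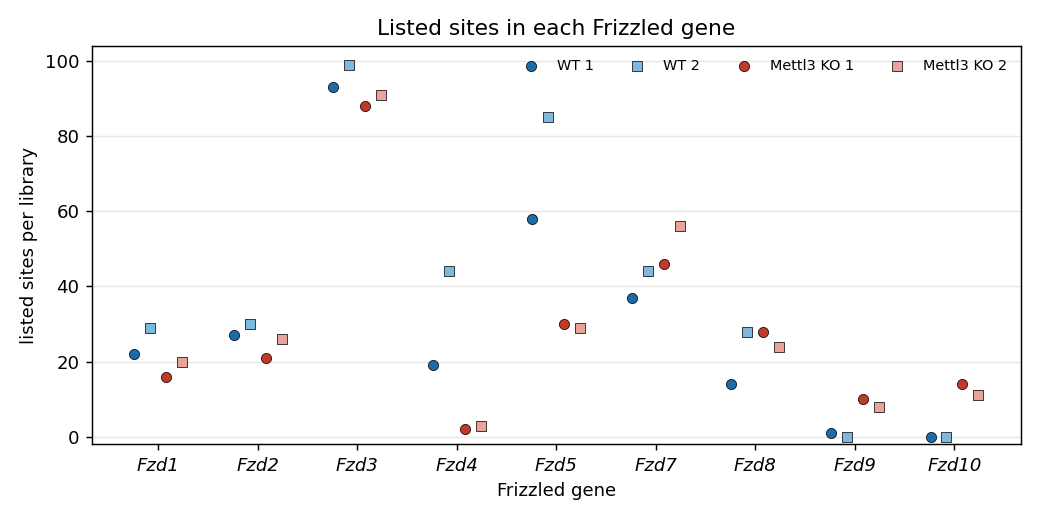
Number of listed m6A sites (vertical axis) in each Frizzled gene (horizontal axis), 1 point per library, WT in blue and Mettl3 KO in red. Fzd4 drops from 19 and 44 sites in WT to 2 and 3 in KO, Fzd5 from 58 and 85 to 30 and 29, whereas Fzd10 is listed only in the KO libraries.

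Fzd5 (ENSMUSG00000045005, chromosome 1, 64769717 to 64776910, minus strand), the eye field receptor, showed the clearest change in transcript coverage. Its deposited gene coverage was 167, 243, 43.8 and 47.5 reads per position, or 3.33, 4.24, 0.821 and 1.03 times the median gene of each library. Both WT libraries were far above both KO libraries. The log2 difference of -2.03 ± 0.19 (SE) passed the test (limma adjusted p = 0.000210), the one call among the 7 Frizzled genes with coverage in all 4 libraries, where 3.08% of 8269 genes were lower and 2.59% higher. The call held under each of the 11 alternatives, with adjusted p up to 0.0269, while the counts over all genes rested on both KO libraries: 255 lower and 214 higher genes became 27 and 14 without KO-1 and 14 and 4 without KO-2. Without WT-2 they became 121 and 105. They also moved with the centring, to 301 lower and 101 higher with none and to 155 and 205 with the upper quartile, and leaving the values uncentred moved the median gene from -0.02 to -0.13. The eye field markers moved with Fzd5. Their listed sites summed to 160 and 209 in WT and to 72 and 64 in KO, and of the 3 that could be tested, Six3 (log2 -3.01) and Lhx2 (log2 -2.81) fell, both with a limma adjusted p of 1.00e-05, whereas Pax6 did not pass (log2 0.12, limma adjusted p = 0.728). The part of cell composition in the Fzd5 difference was not tested.

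The promoter of Fzd5 is shown because the gene lost the most coverage of the family, and that of Fzd10 because it was listed in KO only. Both run from 250 bases before to 50 bases after the RefSeq start, in GRCm38.p6, and capitals mark the GC box GGGCGG and the CCAAT box on either strand. The Fzd5 window is chr1:64737701-64738000 on the minus strand and the Fzd10 window chr5:128600856-128601155 on the plus strand.
Fzd5: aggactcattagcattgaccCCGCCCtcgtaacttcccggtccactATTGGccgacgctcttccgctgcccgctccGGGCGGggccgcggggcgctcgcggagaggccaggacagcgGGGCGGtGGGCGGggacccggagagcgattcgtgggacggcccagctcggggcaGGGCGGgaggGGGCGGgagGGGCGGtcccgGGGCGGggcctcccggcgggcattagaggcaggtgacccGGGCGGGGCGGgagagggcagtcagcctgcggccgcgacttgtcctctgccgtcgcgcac
Fzd10: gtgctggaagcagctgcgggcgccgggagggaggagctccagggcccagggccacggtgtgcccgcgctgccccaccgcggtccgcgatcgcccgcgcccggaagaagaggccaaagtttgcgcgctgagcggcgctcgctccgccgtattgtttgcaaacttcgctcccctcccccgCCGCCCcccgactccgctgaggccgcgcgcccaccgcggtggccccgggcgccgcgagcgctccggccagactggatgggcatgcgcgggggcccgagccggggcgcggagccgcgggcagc
The Fzd5 window held 10 GC boxes and 1 CCAAT box at 75.7% GC, and the Fzd10 window 1 GC box and no CCAAT box at 77.7% GC, against a median of 52.7% GC over 32851 promoters of the same length. A GC box occurred in 35.7% of those promoters and a CCAAT box in 37.4%. Neither window held the homeodomain core TAATTA, which 5.29% of promoters hold, or the Tcf and Lef motif CTTTGAA or CTTTGTT, which 10.6% hold. GC boxes that share a letter, as in GGGCGGGGCGG, were each counted, and a match is a description of the letters only.

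Within Fzd5, 14 sites were listed in both WT libraries, at a median mean level of 0.284, and 12 of the 14 were in neither KO list. The best modified of them, at position 64775920, 990 bases from the gene start, had levels of 0.647 and 0.381 at 34 and 63 reads. The next, at 64775518, had 0.412 and 0.455 at 102 and 112 reads. Sites 64773613 (0.493 and 0.323), 64770801 (0.522 and 0.281) and 64775470 (0.372 and 0.415) completed the 5 highest. None of these 5 sites was in a KO list. With the lower gene coverage of Fzd5 in KO, the coverage expected at these 5 sites was 10.1 to 50.3 reads, and the level that would still have been listed reached 0.263 where the expected coverage was high enough to list anything. At 4 of the 5, both WT levels were above the listing limit that this expected coverage gives in both KO libraries. The exception was 64775920, where the expected coverage was under 15 reads. The reads present at these sites in KO were not measured. A site in the opposite direction lay at 64771603, with 0.558 and 0.364 at 95 and 66 reads in the KO libraries and no WT listing.

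Fzd8 (ENSMUSG00000036904, chromosome 18, 9212163 to 9218136, plus strand), the close relative of Fzd5, did not follow it. Its coverage was 0.723, 0.781, 0.823 and 0.648 times the median gene, with overlapping groups and a log2 difference of -0.04 ± 0.18 (limma adjusted p = 0.915). Its listed sites, 14, 28, 28 and 24, overlapped as well. The levels of single sites shared by both WT lists at 20 or more reads were high: 1.00 and 1.00 at 26 and 23 reads at position 9213912, 0.748 and 0.884 at 123 and 147 reads at 9212793, and 0.480 and 0.597 at 50 and 72 reads at 9212334. Only 9212793 of these 3 was in a KO list, in KO-1 alone, at 0.392 from 51 reads. The site 9212827, with 0.395 and 0.424 at 152 and 170 reads, was in neither KO list. Its expected KO coverage was 175 and 120 reads, which would list a level of 0.118 or more. The nearest KO listings, 34 and 7 bases away, had only 51 and 48 reads. The coverage at 9212827 may thus have been lower than expected, and the level needed for listing higher. Site 9214081 (0.595 and 0.450) was also in neither. A site of lower coverage, 9214402, named after its values were seen, stayed high, with 1.00 and 1.00 at 15 reads each in WT and 0.762 in KO-2 at 21 reads. In the reverse direction, 9215387 was listed in KO only, at 0.190 and 0.250.

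Fzd1, Fzd2 and Fzd7 form a closely related subfamily that signals to beta-catenin, and the Frizzled site with the clearest change in level lay in Fzd2 (ENSMUSG00000050288, chromosome 11, 102495222 to 102498884, plus strand). At position 102496378, 1156 bases from the gene start, the level was 0.995 and 0.996 in WT, from 374 and 498 reads, and 0.110 and 0.125 in KO, from 666 and 496 reads. The WT libraries read this adenosine as almost wholly modified, and the KO libraries lay just above the lowest level that a list holds. It was the one Frizzled site called among the 2 that were in all 4 lists at a coverage of at least 20. The edgeR quasi-likelihood test gave a log2 odds change of -10.59 and an adjusted p of 1.28e-05 over 1557 sites, of which 2.57% were lower in KO and 0 were higher, with 30 higher at an unadjusted p under 0.05. Other tools called 1 to 51 sites higher. Over the 12 alternatives the adjusted p of the Fzd2 site reached at most 0.00891. A site enters this test only if a KO list still holds it, so sites that dropped below a level of 0.1 could not be tested.

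The other Fzd2 sites shared by both WT lists were in neither KO list. Site 102496510 had 0.969 and 0.823 at 223 and 203 reads, site 102496801 had 0.896 and 0.595 at 125 and 168 reads, and site 102495676 had 0.330 and 0.161 at 525 and 700 reads. At 102496293 the levels were 0.239 and 0.225. In all, 7 of the 8 Fzd2 sites shared by the WT libraries were in neither KO list, although each had WT levels above the limit that the expected KO coverage would list. The margin was small at 102495669, with 0.112 and 0.102 in WT against limits of 0.101 and 0.100. An unchanged level could have gone unlisted there. Sites 102496559 (0.136 and 0.144) and 102497065 (0.141 and 0.145) were also near their limits. Well covered sites could be missing within WT too. Site 102497316, named after its values were seen, had 1.00 at 569 reads in WT-1 and was not in the WT-2 list. The gene coverage of Fzd2 was 182 in WT-1 and 233 in WT-2. Absence from a list therefore does not by itself give the level of a site. Over the family, 24 sites had WT levels above their limits and an expected KO coverage of at least 50 reads. Of these, 16 (66.7%, Wilson 95% interval 46.7 to 82.0, counting error only) were in neither KO list, against 80.9% over all genes. The coverage of Fzd2 was 3.63, 4.07, 5.38 and 4.80 times the median gene, with both KO libraries above both WT libraries and a log2 difference of 0.40 ± 0.17 that did not pass (limma adjusted p = 0.179). A KO list held a site 5 bases from 102496510 with 319 reads. One site, 102495928, was in both KO lists and no WT list, at 0.199 and 0.143.

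**Figure D2:**
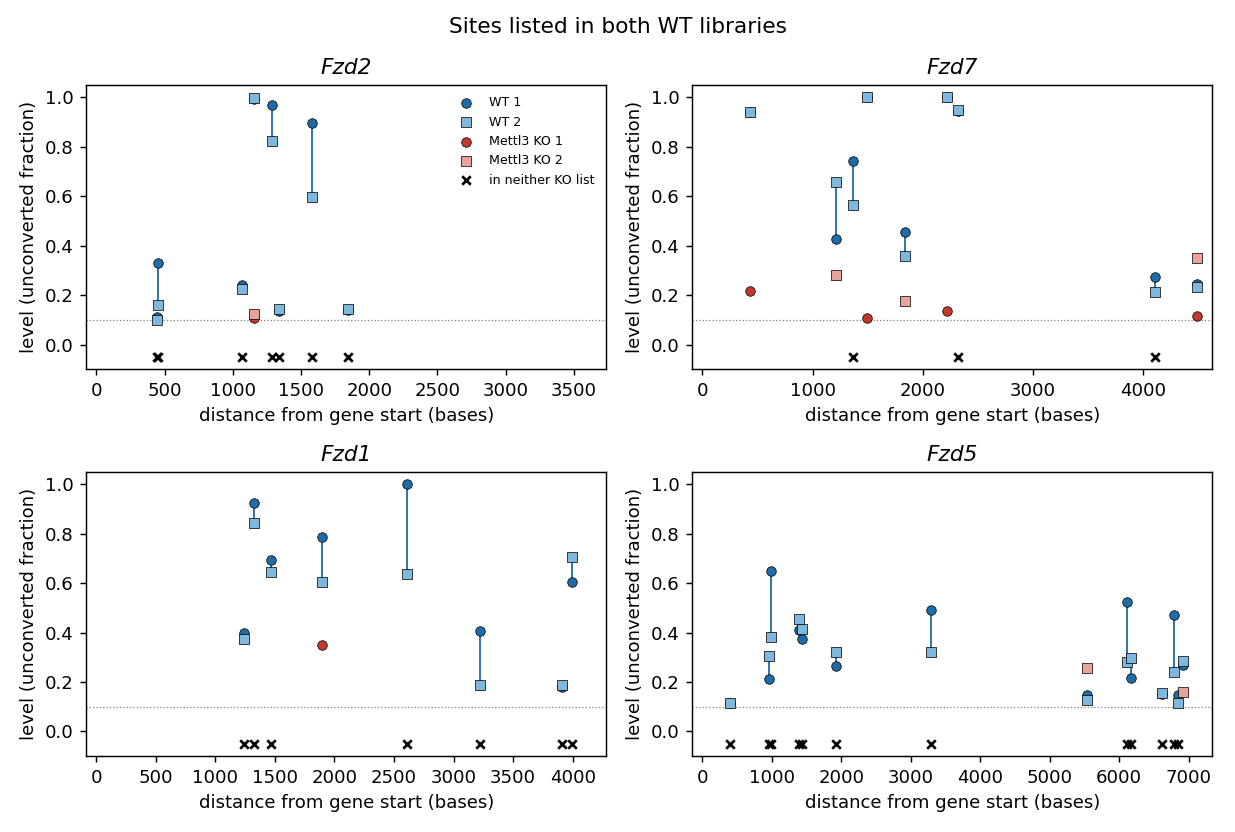
Level (unconverted fraction, vertical axis) against distance from the gene start in bases (horizontal axis) for every site listed in both WT libraries in Fzd2, Fzd7, Fzd1 and Fzd5. Blue points are WT libraries joined by a line, red points are KO libraries that list the site, crosses mark sites in neither KO list, and the dotted line is the lowest listed level of 0.1. In Fzd2 the site at 1156 bases stands at 0.995 and 0.996 in WT and at 0.110 and 0.125 in KO.

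Fzd7 (ENSMUSG00000041075, chromosome 1, 59521583 to 59526114, plus strand), a receptor known from pluripotent cells and mesendoderm, kept its coverage and had more listed sites in KO. Its listed sites numbered 37, 44, 46 and 56, with both KO libraries above both WT libraries, and its coverage was 1.61, 1.98, 2.08 and 1.67 times the median gene (log2 0.07 ± 0.19, limma adjusted p = 0.867). Of its 9 shared WT sites, 3 were in neither KO list, 5 were in 1 and 1 was in both. Levels in KO-1 were low at the strongest of them. Position 59523074 had 1.00 and 1.00 in WT, at 54 and 117 reads, and 0.110 in KO-1 at 82 reads. Position 59523801 had 1.00 and 1.00 at 31 and 21 reads and 0.135 in KO-1 at 52 reads. Position 59522015 had 0.940 and 0.942 at 184 and 291 reads and 0.217 in KO-1 at 281 reads. At each of these 3 sites the KO-1 level was far below either WT level, and KO-2 did not list the site. Sites 59523905 (0.946 and 0.948 at 56 and 173 reads) and 59522945 (0.742 and 0.565) were in neither KO list. A weaker site, 59526071, 43 bases from the gene end, was in all 4 lists at 0.246, 0.235, 0.115 and 0.350, so the groups overlapped, and it did not pass (edgeR adjusted p = 0.953); its log2 odds difference was -0.47 and became 0.77 without KO-1. Fzd7 further held 8 of the 16 Frizzled sites that were in both KO lists and no WT list, the highest at 59525445 (0.185 and 0.350) and 59524717 (0.151 and 0.360).

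Fzd1 (ENSMUSG00000044674, chromosome 5, 4803839 to 4808035, minus strand), which lies on a single coding exon, was listed with 22, 29, 16 and 20 sites. Its coverage was 1.21, 1.23, 0.889 and 0.796 times the median gene, with both KO libraries lower, and the log2 difference of -0.54 ± 0.16 did not pass (limma adjusted p = 0.0801; 0.0449 when the genes of lowest coverage were left out). Among sites of both WT lists, the highest were 4806712 (0.923 and 0.842 at 52 and 76 reads), 4805424 (1.00 and 0.638 at 66 and 47 reads), 4806142 (0.787 and 0.606 at 61 and 71 reads), 4806565 (0.692 and 0.643 at 39 and 42 reads) and 4804040 (0.603 and 0.707 at 68 and 92 reads). Of these 5, only 4806142 was in a KO list, at 0.348 from 23 reads in KO-1. Scaled by gene coverage, 22.8 to 57.4 reads were expected at these sites in KO, enough to list levels of 0.227 or more at each. At 4806142, however, KO-1 had 23 reads where 47.6 were expected. The sites in neither KO list may likewise have had fewer reads than expected, which was not measured. No Fzd1 site reached a level of 0.3 at 50 reads in either KO library, whereas 5 and 11 did in the WT libraries.

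Fzd4 (ENSMUSG00000049791, chromosome 7, 89053563 to 89062342, plus strand), the receptor for both Wnt and Norrin in retinal vessel growth, had the largest loss of listed sites relative to its WT count, 19 and 44 in WT against 2 and 3 in KO. Its deposited gene coverage did not move with them, at 0.829, 0.760, 0.580 and 0.994 times the median gene, so the groups overlapped and the log2 difference was -0.06 ± 0.23 (limma adjusted p = 0.900). The listed sites of Fzd4 seldom recurred, like most sites of the series: 66 of its 67 distinct sites were in 1 library only. The exception, 89061697, lay 645 bases from the gene end and had 0.571 and 0.20 at 28 and 25 reads in WT and no KO listing. With an expected 19.3 and 28.7 reads in KO, the lower of its WT levels could have gone unlisted.

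Fzd3 (ENSMUSG00000007989, chromosome 14, 65429898 to 65499912, minus strand) acts in planar polarity and axon guidance, as does Fzd6. It is the longest of the genes in the lists, 70015 bases, and its listed sites numbered 93, 99, 88 and 91. Per kilobase of the gene interval, introns included, that was 1.37 in WT and 1.28 in KO, against 9.94 and 4.10 for Fzd5. The density along the transcripts was not computed. Coverage of Fzd3 was 1.35, 1.43, 1.14 and 1.04 times the median gene, lower in both KO libraries without passing the test (log2 -0.35 ± 0.16, limma adjusted p = 0.228). Its 3 strongest shared WT sites lay within a stretch 26739 to 27166 bases from the gene start. Position 65472746 had 0.825 and 0.845 at 40 and 213 reads and 0.101 in KO-2 at 69 reads. Position 65473173 had 0.789 and 0.805 at 374 and 486 reads and was in neither KO list, although 348 and 276 reads were expected there. The KO listings nearest to it, 85 and 30 bases away, had 126 and 261 reads. Position 65473059 had 0.762 and 0.570 at 101 and 158 reads and 0.20 in KO-2 at 30 reads. All 3 were high in both WT libraries and low or unlisted in KO. Further sites were weaker, 65490413 at 0.439 and 0.263 with 0.101 in KO-2, and 65435115 at 0.391 and 0.237 in WT only. The sites of both KO lists alone were weaker still, 0.265 and 0.208 at 65431399 and 0.115 and 0.179 at 65477351.

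Fzd9 (ENSMUSG00000049551, chromosome 5, 135277792 to 135280084, minus strand) and Fzd10 (ENSMUSG00000081683, chromosome 5, 128677908 to 128681157, plus strand) were seen almost only in KO. Fzd10, which marks the dorsal neural tube, had 0, 0, 14 and 11 listed sites, and its coverage is given in the KO libraries alone, at 36.2 and 33.96 reads per position, or 0.679 and 0.733 times the median gene. Fzd9 had 1, 0, 10 and 8 listed sites and a coverage of 23.8 reads in WT-1 and 34.4 and 32.4 in KO-1 and KO-2. The groups did not overlap for either gene. Both lacked a value in at least 1 WT library and could not be tested. A list gives a gene coverage only from 15 reads, and only for a gene with a listed site. Fzd10 had no listed site in WT and Fzd9 none in WT-2, so their coverage there was not measured and no fold is given. Of the sites, 2 in Fzd10 were in both KO lists, 128680140 (0.409 and 0.150) and 128680613 (0.212 and 0.130), and none in Fzd9 was. Caudal neural and neural crest markers together had 3 and 6 listed sites in WT and 59 and 26 in KO. Pax3 alone gave 36 and 12 of those in KO. En1 had 2, 2, 7 and 7, Foxd3 1, 2, 6 and 4, Sox10 0, 2, 1 and 3, and Pax7 0, 0, 9 and 0. Of these 8 markers, 2 could be tested and 0 passed in limma, En1 (log2 0.40, adjusted p = 0.207) and Foxd3 (log2 -0.09, adjusted p = 0.790), with En1 alone under an unadjusted 0.05, while En2, Gbx2 and Hoxb1 have no interval in the lists. Their part in the Fzd9 and Fzd10 values was not tested.

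**Figure D3:**
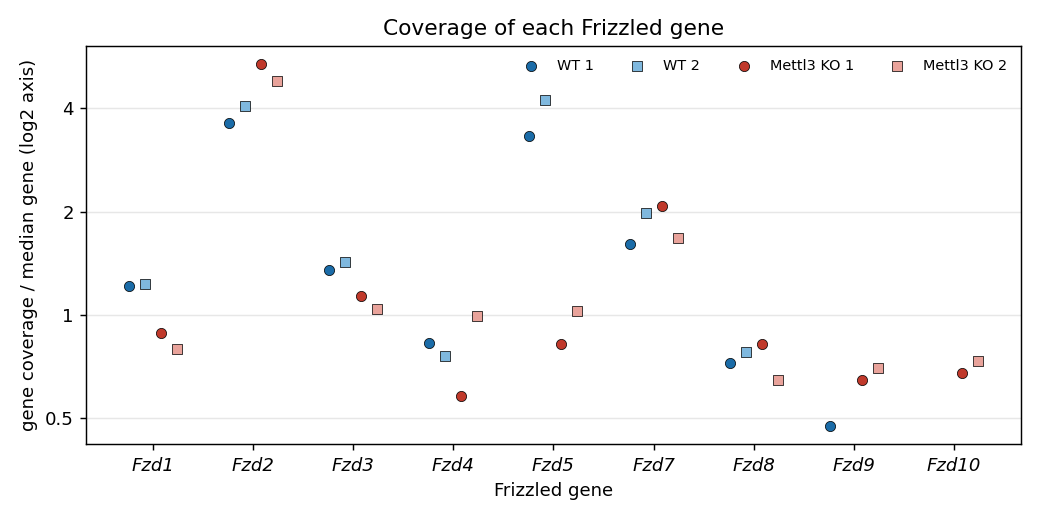
Gene coverage divided by the library's median gene (vertical axis, log2 scale) for each Frizzled gene (horizontal axis), 1 point per library, WT in blue and Mettl3 KO in red; a missing point is a library without a value. Fzd5 falls from 3.33 and 4.24 in WT to 0.821 and 1.03 in KO, and Fzd10 has points in KO only.

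Taking the shared sites of the family as a whole, 57 Frizzled sites were in both WT lists at a coverage of at least 20, and 43 of them, 75.4% (Wilson 95% interval 62.9 to 84.8), were in neither KO list. Over all genes the share was 81.3%, which lies inside that interval. The share in the opposite direction was similar, with 15 of 20 sites of both KO lists (75%; Wilson 95% interval 53.1 to 88.8) in neither WT list, against 68% over all genes, so shared sites were often missing from the other genotype's lists in both directions. Among WT sites with levels of at least 0.3, 17 of 27 Frizzled sites (63.0%; Wilson 95% interval 44.2 to 78.5) were in neither KO list, against 83% over all genes, which lies above that interval. With an expected KO coverage of at least 50 as well, it was 5 of 12 (41.7%; Wilson 95% interval 19.3 to 68.0), against 85%, again above the interval. Of these 12 sites, 6 were in 1 KO list and 1 in both, and 3 of those 7 lay in Fzd7. These intervals hold counting error only and treat sites as independent, although sites of a gene share its coverage and the same libraries. The 12 sites lay in Fzd2, Fzd3, Fzd7 and Fzd8 and are part of the 27. A share outside an interval is therefore no test, and the difference between the Frizzled sites and all sites was not tested.

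Where a KO list did hold a shared WT site, its level could be compared directly. There were 15 such Frizzled sites, of which 13 were in 1 KO list and 2 in both. At 13 of the 15, every listed KO level was below both WT levels, where the same held for 42.4% of 5214 sites over all genes. Among the 11 with WT levels of at least 0.3 without a coverage minimum, all 11 were lower, against 69% of 1651. The 2 exceptions were the weak Fzd7 site 59526071 and the Fzd5 site 64771374, named after its values were seen, at 0.146 and 0.128 in WT and 0.256 in KO-2 from 39 reads.

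**Figure D4:**
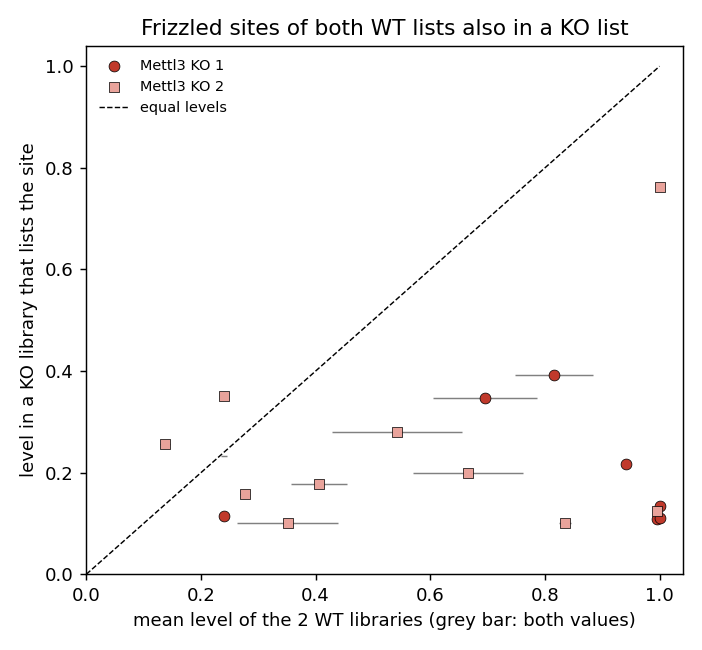
Level in a KO library (vertical axis, unconverted fraction) against the mean level of both WT libraries (horizontal axis, grey bars join the WT values) for the 15 Frizzled sites of both WT lists that a KO list also holds. Points below the dashed line are lower in KO, and the 11 sites with WT levels of at least 0.3 all lie there.

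The deposited gene conversion rate gives a second view that does not use the levels of single sites, although it includes every adenosine of the gene. A library gives it only for a gene with a listed site, so Fzd10 has no WT value and Fzd9 none in WT-2. Fzd9 had an unconverted share of 1.99% in WT-1, 2.82% in KO-1 and 5.60% in KO-2. The unconverted share of Fzd1 was 6.33%, 5.73%, 2.53% and 2.37%, that of Fzd2 6.92%, 6.60%, 3.95% and 4.09%, and that of Fzd8 7.51%, 5.77%, 3.63% and 4.86%. Fzd4 had 2.94%, 3.56%, 1.77% and 1.34%, and Fzd7 had 4.22%, 4.55%, 2.66% and 3.75%. Fzd3 had 2.83%, 3.03%, 2.16% and 2.57%. In these 6 of the 7 genes with values in all libraries both KO libraries were below both WT libraries, as in 50% of 8269 genes (3.7% had both KO libraries above), and the medians of the libraries, 3.91%, 3.83%, 2.85% and 3.38%, were lower in KO too. The WT minus KO difference was 3.58 percentage points for Fzd1, 2.74 for Fzd2, 2.39 for Fzd8, 1.70 for Fzd4 and 1.18 for Fzd7, against a median of 0.633 over all genes. It was 0.565 for Fzd3 and 0.389 for Fzd5 (3.87%, 3.49%, 3.62% and 2.97%, overlapping groups), the gene with the largest loss of coverage. Relative to the median gene, limma called 0 of the 8269 genes lower and 0 higher, with 651 lower (7.87%) and 408 higher (4.93%) at an unadjusted p under 0.05. Fzd1 (log2 odds -1.02 ± 0.19 SE, limma adjusted p = 0.335) and Fzd2 (log2 odds -0.46 ± 0.17, limma adjusted p = 0.385) were the Frizzled genes under that unadjusted limit.

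**Figure D5:**
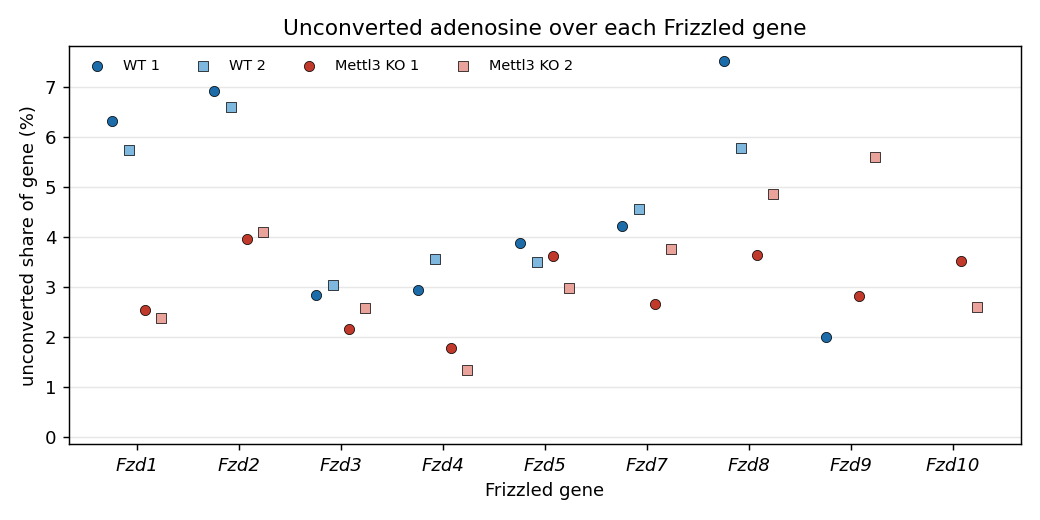
Unconverted share of all adenosines of a gene in percent (vertical axis) for each Frizzled gene (horizontal axis), 1 point per library, WT in blue and Mettl3 KO in red. Fzd1 separates most, at 6.33% and 5.73% in WT against 2.53% and 2.37% in KO, while the WT and KO points of Fzd5 overlap.

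The other genes of the Wnt pathway were read through the same coverage fit. Of 60 genes in 5 lists, 32 had a value in all 4 libraries, 3 were called lower and 4 higher (3.08% and 2.59% over all genes), with a median log2 difference of 0.11 against -0.02 over all genes. Among 18 Wnt ligands, 4 could be tested and Wnt1, a caudalising signal of the midbrain-hindbrain region, rose (0.409, 0.302, 1.33 and 1.87 times the median gene; log2 2.16 ± 0.21, limma adjusted p = 0.000279). Of 11 co-receptors and turnover factors, 7 were tested and Ror2, a receptor for Wnt5a, rose (log2 1.15, limma adjusted p = 0.00409). Of 14 transducers, 13 were tested: Axin2, a feedback target of beta-catenin signalling, rose (0.747, 0.543, 1.34 and 2.36 times; log2 1.48, limma adjusted p = 0.00947), whereas the repressor Tcf7l1 (log2 -1.04, limma adjusted p = 0.00873) and Tcf7l2 (log2 -0.79, limma adjusted p = 0.0217) fell. Of 10 secreted antagonists, 3 were tested and Sfrp1, which binds Wnt proteins, fell (5.84, 7.48, 3.33 and 3.33 times; log2 -0.99, limma adjusted p = 0.0103). Of 7 planar polarity genes, 5 were tested and Vangl1 rose (log2 0.87, limma adjusted p = 0.0307). For each of these 7 genes the WT and KO libraries did not overlap. The genes were picked by a test on the same values, so this adds nothing to the calls, and the share over all genes was not computed. Vangl1 was not called with upper quartile centring, Sfrp1 without WT-2 and Tcf7l2 without WT-1. More calls were lost without a KO library: without KO-1, 0 genes were lower and 2 higher, and without KO-2, 0 were lower and 1 was higher, which was Wnt1, so of the called Frizzled and pathway genes, Fzd5 and Wnt1 kept their calls in all 11 alternatives.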

How the data were processed

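The 4 site lists give, per the file headers, a site's coverage and unconverted reads, which are whole-number counts, its level as a fraction, a p-value, the gene's conversion rate as a fraction and the mean gene coverage as a signal, all as the authors deposited them. The mm10 build stands in the submitters' processing notes; aligner, caller and treatment of reads that match several genes are not given in the sources used here. Of 9 Frizzled intervals in the lists, 8 had 0 listings in the GRCm38 RefSeq interval, so coordinates are those of the lists, with no build named, and are not set against the promoter windows. The lists start at 15 reads, 5 of them unconverted, and at a fraction of 0.1, and their deposited p-value ends at 0.004. Gene coverage also starts at 15, so differences of low genes are understated. The deposited name is often a neighbour's (25 of 202 Fzd5 and 112 of 371 Fzd3 listings carried the gene's own), so sites were placed by interval and strand. The lists mark introns in 855 of 1153 Frizzled listings, including most of the single-exon Fzd1, so the mark was not used.

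Levels of sites in all 4 lists (coverage at least 20) were tested with edgeR 4.0.16 (quasi-likelihood, a term per library), gene coverage with limma 3.58.1 on log2 values centred on the median gene, and the gene unconverted share with limma on log2 odds, an analysis added after seeing the data. P-values were Benjamini-Hochberg adjusted over all features, threshold 0.05. The expected KO coverage of a site is its WT coverage scaled by gene coverage. At sites listed in KO, observed over expected had a median of 0.966 in KO-1 and 0.921 in KO-2. The spread was wide, with lower and upper deciles of 0.583 and 1.53 in KO-1 and 0.517 and 1.48 in KO-2. For Frizzled sites (n = 5 per library) the medians were 0.950 and 0.897, with deciles of 0.556 and 1.08 in KO-1 and 0.432 and 1.04 in KO-2. Sites of low expected coverage were left out, so the check does not cover most sites named in Fzd1 and Fzd5. Sites in neither KO list could not be checked. The scripts were tested on simulated data. Members, lists and rules were chosen with earlier results of these data known. Sites named had 20 or more reads wherever they were listed: those in all 4 lists, up to 5 per gene of both WT lists by mean WT level and up to 2 of both KO lists alone; pathway genes were named when called. Same-numbered libraries did not deviate together (r = 0.0587 for level, -0.0276 for gene coverage), so numbers were not used as pairs. Alternatives were DESeq2 1.42.0, other tests, minimums, centrings, a replicate block and leaving out each library.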

Additional observations from a re-analysis of the deposited data

How the results depend on the processing

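The Fzd2 site and the Fzd5 coverage kept their direction and side of the threshold in every alternative run. Leaving out the genes of lowest coverage gave 2 Frizzled genes with lower coverage in place of 1, adding Fzd1. The KO over WT ratio of listed Frizzled sites was 0.563 at a coverage of at least 50 and 0.728 to 0.965 when 1 library was left out. That of high-level sites was 0.469 at a coverage of at least 20, 0.0233 at 100, 0.288 at a level of at least 0.2 and 0.0952 at 0.5, and 0.143 to 0.258 with 1 library left out. The share of shared WT sites in neither KO list became 84.2% to 87.7% with 1 KO library left out, by construction, since a site then has fewer lists to appear in. Pathway genes called lower ranged from 0 to 2 and higher from 1 to 4 with 1 library left out.

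With the replicate block, the same 1 Frizzled site and 1 Frizzled gene were called lower, 3 pathway genes were lower and 4 higher, and counts over all features were 50 lower and 3 higher sites and 308 lower and 290 higher genes; it changed no Frizzled call. Over all sites Fisher's exact test on summed reads, which ignores the spread between libraries, called 117 lower and 51 higher, and leaving out KO-1 24 lower and 2 higher. Without the genes of lowest coverage, 415 genes were lower and 367 higher in coverage. The cause of these shifts was not tested. Levels below 0.1 and sites under 15 reads were not measured, 2 libraries per genotype cannot give an exact p below 0.33, and a library left out leaves 1 sample in its group, assumed to vary like the others.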

Other observations

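Genes whose coverage profile over the 4 libraries lay nearest to a Frizzled gene are given as a description, by Euclidean distance between log2 multiples of the median gene. Fzd5 had the least close neighbours of the 7 genes, Trh at 0.435 (4.46, 4.44, 0.869 and 1.02 times the median gene) and Slc7a3 at 0.724. Fzd3 was nearest to Pik3r3 at 0.0467 and Ctc1, Fzd8 to Miga1 at 0.0491 and Rad54l, and Fzd7 to Nup153 at 0.0857 and Twsg1. Fzd1 lay nearest to Sgce at 0.125 and Pdxdc1, Fzd4 to Gorasp1 at 0.162 and Mcu, and Fzd2 to Il4i1 at 0.215 and Pgd.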
